A study of Mus musculus with 4 samples.

Results

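Chemokine receptors and decoy receptors are cell surface proteins that bind chemokines, the small secreted proteins that guide migrating cells. Of the 31053 features in the deposited matrices, 8 were followed by gene symbol: Ccr2, Cx3cr1, Cxcr2, Cxcr3, Cxcr4, Cxcr6, Ackr1 and Ackr3. The cells were the stromal vascular fraction (SVF) of mouse inguinal white adipose tissue (iWAT), the subcutaneous fat of the groin, after digestion and removal of the floating adipocytes. Control SVF was pooled from 7 mice, named as C57BL/6, and iAdFASNKO SVF was pooled from 8 mice. iAdFASNKO is known as an inducible knockout in adipocytes of Fasn, the fatty acid synthase gene; the labels do not give the Cre line, the inducing agent, the mouse ages or the background of the knockout. Magnetic sorting separated each pool into cells that carried immune lineage markers (Lin+) and the remaining, mainly stromal cells (Lin-), and every fraction gave 1 droplet library.

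Several features of this design limit what can be read from it. There was 1 library for each genotype and fraction, so no spread between animals could be measured, no test between genotypes was possible, and no p-value is given. The genotype of each of the 2 matrices was read from its name, so an exchange of names would turn every genotype direction given here. The knockout acts in adipocytes, which the libraries do not hold: Adipoq, the adipocyte hormone gene, had 0, 0, 1 and 14 UMIs (unique molecular identifiers, each standing for 1 captured transcript) in the Lin+ control, Lin+ iAdFASNKO, Lin- control and Lin- iAdFASNKO libraries. Fasn itself was measured at 35.8, 21.7, 38.0 and 24.9 counts per 1000000 UMIs (CPM) over all retained cells in the same order, which does not check the labels because the deletion lies in cells that are not there.

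Signalling chemokine receptors are G protein-coupled receptors that turn a chemokine gradient into directed movement. Ccr2 binds the monocyte chemoattractants, Cx3cr1 binds the tethered chemokine Cx3cl1, Cxcr2 binds the neutrophil attractants Cxcl1 and Cxcl2, Cxcr3 binds the interferon-induced Cxcl9 and Cxcl10, Cxcr4 binds Cxcl12, and Cxcr6 binds Cxcl16. Ackr1 and Ackr3 are atypical receptors, which bind chemokines without classical G protein signalling: Ackr1 carries many inflammatory chemokines across the endothelium of small veins, and Ackr3 scavenges Cxcl12. In fat, Ccr2 is known for the entry of monocytes that become macrophages in obesity.

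All 8 genes are protein-coding. In mm10, the build named in the submitters' processing notes, with GENCODE M21 coordinates joined by gene ID, 4 of them lie on chromosome 1: Cxcr2 at chr1:74153989-74161246 (plus strand), Ackr3 at chr1:90203980-90216751 (plus), Cxcr4 at chr1:128588199-128592293 (minus) and Ackr1 at chr1:173331886-173333750 (minus). Cx3cr1 (chr9:119901616-120069879, minus), Cxcr6 (chr9:123806475-123811760, plus) and Ccr2 (chr9:124101950-124113557, plus) lie on chromosome 9. Cxcr3 lies at chrX:101731535-101734269 on the minus strand. The counts are 3' tag counts summed over each whole gene.

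The 4 libraries held 18336 barcodes and 21622291 to 33016494 UMIs each. After filtering, 14431 cells were retained, with a median of 3384.5 to 9240.5 UMIs per cell by library, and 13475 of them fell into 22 classes by marker genes that exclude every chemokine and chemokine receptor. Of the barcode sequences, 209 occurred in more than 1 library, on 648 barcodes. In 408 of these the UMI total was more than 10 times below that of the same sequence elsewhere (median 556 UMIs against 30294 in the deepest copy); these shallow copies were left out, and 219 retained cells still carry a shared sequence. Class names end in "-like" because they rest on marker genes and not on a deposited annotation. The share of cells close to the class threshold was 2.02% for progenitor-like and 6.83% for B cell-like cells, but 20.9% for macrophage-like, 39.0% for type 2 innate lymphoid-like (ILC2-like), 45.8% for classical monocyte-like and 56.4% for type 2 dendritic-like cells.

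Levels are given as CPM: the UMIs of a gene summed over all cells of a class in a library, scaled to the UMI total of those cells. They compare 1 gene across classes, not 1 gene with another. Intervals are 95% intervals for counting error only (exact Poisson for a level, exact conditional binomial for a ratio, Clopper-Pearson for a share). Spread between cells in a level or ratio, and PCR, animal and handling differences, lie outside them. Those for levels and ratios treat each UMI as independent, so they are too narrow where UMIs gather in few cells. A class entered with at least 20 cells in a library. A gene counted as measured in a comparison where both libraries together held at least 20 of its UMIs, and as higher or lower where the ratio was at least 1.5-fold and its interval left out 1. Fewer cells with a transcript and fewer transcripts per cell are told apart only through the share of cells with a UMI, which depends on depth. The expected share after thinning to 1000 UMIs is therefore given as well. It covers only cells with at least 1000 UMIs. In progenitor-like cells this left out 91 of 1719 in Lin+ control and 164 of 1670 in Lin+ iAdFASNKO.

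Over all retained cells, Ackr3 had the most UMIs of the 8 genes, 18406 in 5101 cells. Cxcr4 had 2903 UMIs in 1418 cells, Ccr2 had 2883 in 788 and Ackr1 had 1746 in 1099. Cxcr6 had 700 in 405 cells, Cx3cr1 350 in 152, Cxcr3 330 in 239 and Cxcr2 266 in 113. Relative to the UMI total of each class, the decoy receptors Ackr1 and Ackr3 stood highest in stromal and vascular cells and the 6 signalling receptors in immune cells. Cells outside the classes held 22.1% of the Ccr2 UMIs and 18.7% of the Cxcr6 UMIs, against 1.60% and 1.65% for Ackr1 and Ackr3.

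**Figure D1:**
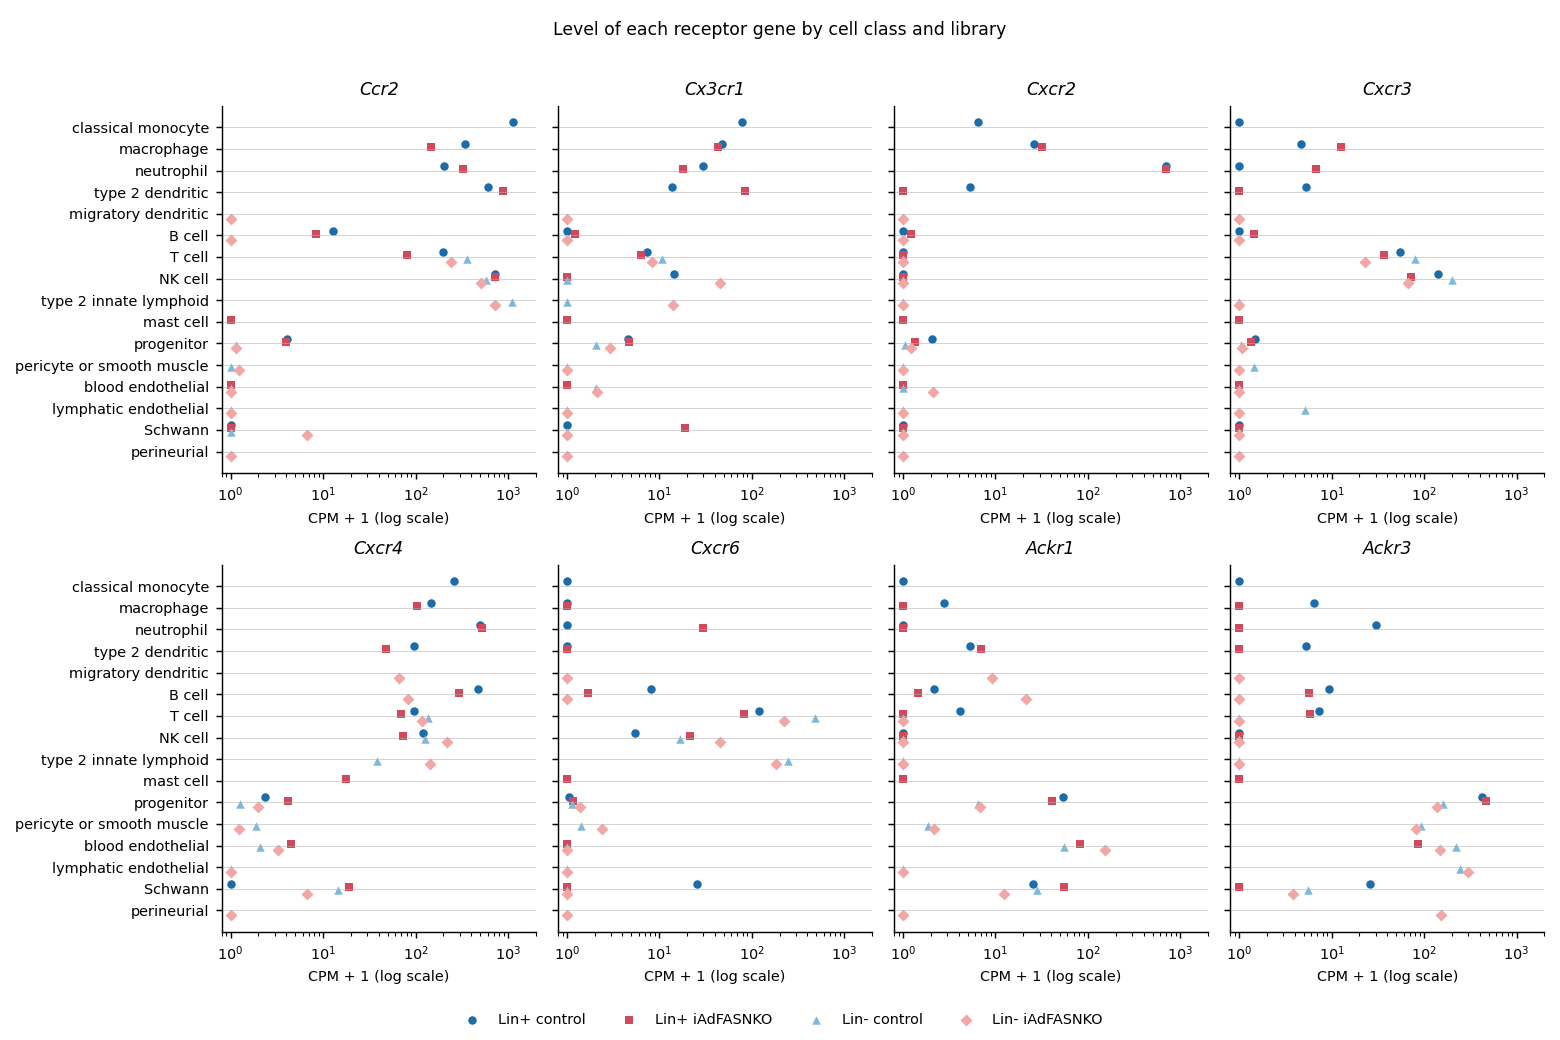
Level of each of the 8 receptor genes (CPM + 1, log axis) by cell class, with 1 point for each library that held at least 20 cells of the class. Ackr3 and Ackr1 stand highest in stromal and vascular classes, and the other 6 genes in immune classes.

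Ccr2, the receptor for Ccl2 and related monocyte attractants, was highest in classical monocyte-like cells, at 1135 CPM in the Lin+ control library, the 1 library with at least 20 of them. There 31 of 32 cells (96.9%) had a Ccr2 UMI, and 65.8% would at 1000 UMIs per cell. ILC2-like cells, which make type 2 cytokines, came next at 1105 CPM in Lin- control and 727 in Lin- iAdFASNKO, a mean of 916. Type 2 dendritic-like cells had 608 CPM in Lin+ control and 879 in Lin+ iAdFASNKO. The range of dendritic levels overlaps that of ILC2-like cells.

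In natural killer (NK) cell-like cells, cytotoxic innate lymphocytes, the Ccr2 level was 723 CPM in Lin+ control, 716 in Lin+ iAdFASNKO, 579 in Lin- control and 505 in Lin- iAdFASNKO. Neutrophil-like cells had 202 and 325 CPM in the control and iAdFASNKO Lin+ libraries, and macrophage-like cells 342 and 146. T cell-like cells had 196 and 79.2 CPM in the Lin+ and 361 and 242 in the Lin- control and iAdFASNKO libraries. The ranges of neutrophil-like, macrophage-like and T cell-like cells overlap. The neutrophil sum leans on single cells, since 11 of its 21 control UMIs and 23 of its 57 iAdFASNKO UMIs came from 1 cell each. Ccr2 averaged 6.47 CPM in B cell-like and 1.59 CPM in progenitor-like cells.

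The 2 classes next below monocytes in level had Ccr2 UMIs in most of their cells. In type 2 dendritic-like cells 94.1% (control) and 80% (iAdFASNKO) had a Ccr2 UMI, or 48.2% and 51.2% at 1000 UMIs. In ILC2-like cells it was 91.2% and 60%, or 62.3% and 44.6% at 1000 UMIs. Progenitor-like cells of the Lin+ control library serve as the background: 1.63% had a Ccr2 UMI at a median of 8352 UMIs per cell, and 0.420% would at 1000 UMIs. The type 2 dendritic-like and ILC2-like shares lie far above that background. This does not hold for every immune class, since the B cell-like shares of the Lin+ libraries lie near it.

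Across genotypes in the Lin+ fraction, Ccr2 was lower in iAdFASNKO macrophage-like and T cell-like cells. In macrophage-like cells the 342 and 146 CPM rested on 189 UMIs in 39 of 106 cells and 38 UMIs in 9 of 52 cells, a ratio of 0.426 (0.292 to 0.606). The share of cells with a UMI was 36.8% and 17.3%, or 23.1% and 10.1% at 1000 UMIs. Of the 4 members measured in macrophage-like cells, 1 was past 1.5-fold, beside 11.5% of the 5250 genes measured there. The median log2 ratio was -0.33 over the members and -0.17 over all genes. Cells with the resident marker set (Lyve1, Folr2 and others) had 164 CPM in control and 50.2 in iAdFASNKO, on 60 and 31 cells, and those left without a subset had 546 and 192. The resident ratio was 0.306 (0.133 to 0.625). No ratio was formed for the cells left without a subset, so no direction is read for them.

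The macrophage ratio moved with the cell filter and came with other differences between the libraries. With a looser filter it was 0.802 (0.629 to 1.02), which ends the call, and with a stricter filter 0.052. The summed level of 9 dissociation stress genes was 8466 CPM in control and 17020 in iAdFASNKO macrophage-like cells. The T cell marker list stood at 3.62 and 145.7 CPM, the B cell list at 110.5 and 261, and the progenitor list at 415 and 230.1, in the same order; their part in the Ccr2 difference was not tested.

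In Lin+ T cell-like cells the Ccr2 ratio was 0.404 (0.335 to 0.489), on 187 and 279 UMIs in 222 and 736 cells. The share with a UMI was 25.7% in control and 14.0% in iAdFASNKO, or 13.5% and 5.70% at 1000 UMIs. The B cell list stood at 10.5 and 75.2 CPM and the progenitor list at 361 and 228 CPM in these cells, and their part in the T cell-like ratios was not tested. Of the 6 members measured in these cells 2 were past 1.5-fold, both lower, beside 11.7% of all genes measured. The members' median log2 ratio was -0.53 and that of all genes -0.06. In the Lin+ NK cell-like cells the Ccr2 ratio was 0.991 (0.738 to 1.32), and 0 of 3 measured members were past the fold, beside 9.72% of all genes.

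The Ccr2 ratio in Lin+ type 2 dendritic-like cells was 1.45 (1.14 to 1.83), just under 1.5-fold, with 0 of 2 members past the fold beside 10.9% of all genes. In neutrophil-like cells it was 1.61 (0.962 to 2.80), an interval that holds 1, and 0 of 3 members were past the fold beside 16.8% of all genes. The Ccr2 ratio thus lay under 1 in macrophage-like and T cell-like cells and over 1 in dendritic-like and neutrophil-like cells, without a test of the differences between classes.

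Among Lin- ILC2-like cells, Ccr2 had 1105 and 727 CPM in the control and iAdFASNKO libraries, on 34 and 25 cells, for a ratio of 0.658 (0.475 to 0.901). This was 1 of 2 measured members past the fold, beside 19.2% of all genes. With the mean over cells scaled to equal depth the ratio was 0.883, which ends the call. The stress list stood at 14000 and 7144 CPM in these cells and its part was not tested. In Lin- NK cell-like cells the Ccr2 ratio was 0.872 (0.521 to 1.41), and 0 of 3 members were past the fold beside 13.6% of all genes.

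**Figure D2:**
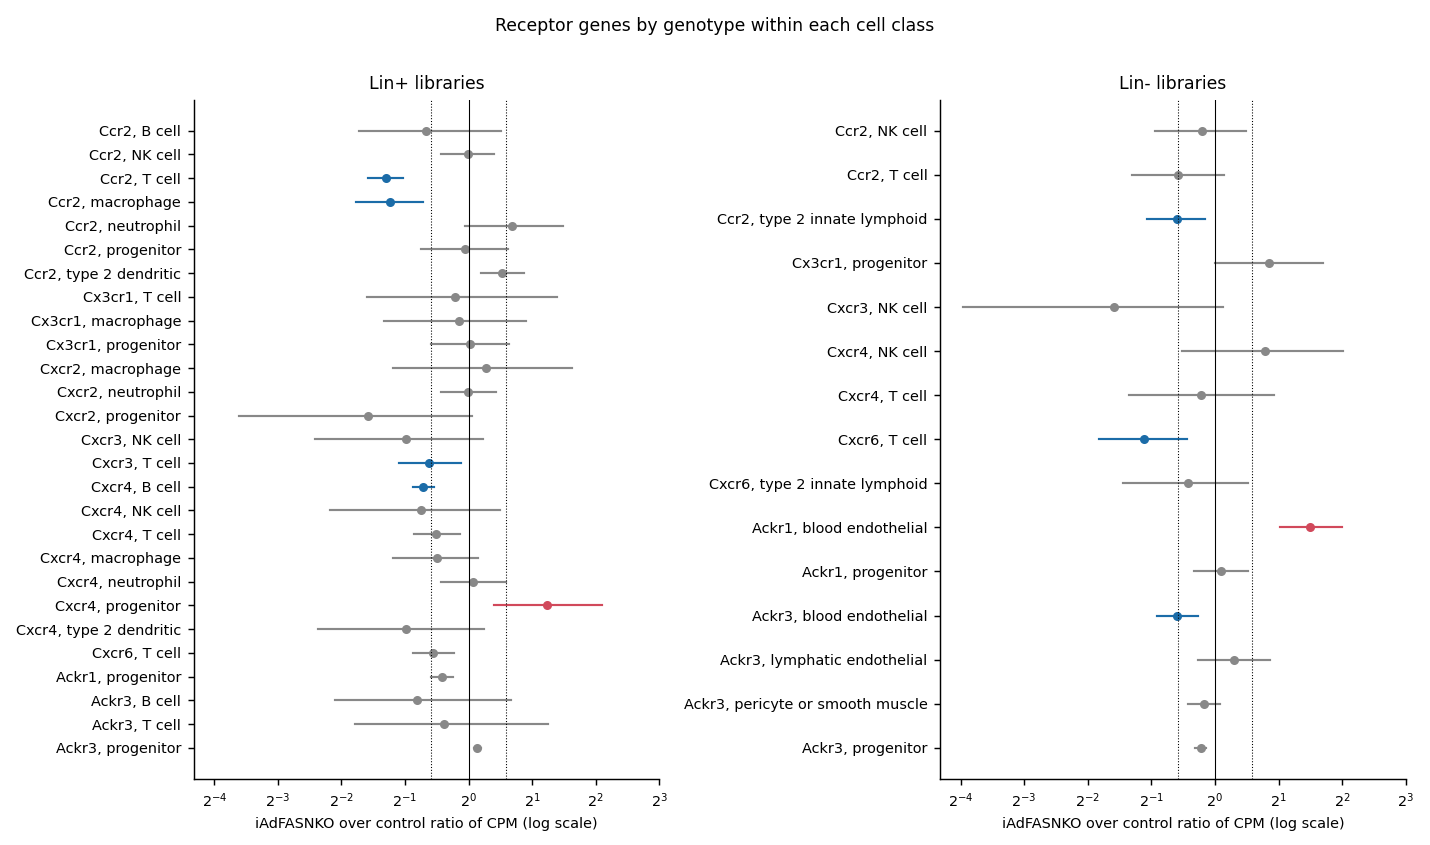
Ratio of iAdFASNKO over control (log axis) with its 95% counting interval for the 27 measured pairs of gene and class in the Lin+ fraction and the 15 in the Lin- fraction, red where higher and blue where lower past 1.5-fold (dotted lines). In Lin+ 1 pair is higher and 4 are lower, and in Lin- 1 is higher and 3 are lower. By class, 6.03% to 16.8% of all genes are past the fold in Lin+ and 9.09% to 19.2% in Lin-.

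Cx3cr1, the receptor for the membrane-bound chemokine Cx3cl1, was low in every class with at least 20 cells. Classical monocyte-like cells of the Lin+ control library had 77.1 CPM, with UMIs in 8 of 32 cells. Type 2 dendritic-like cells had 12.8 and 83.1 CPM and macrophage-like cells 47.1 and 42.2 CPM in the Lin+ control and iAdFASNKO libraries. The dendritic values span the macrophage values, so the order of these 2 classes cannot be told. The macrophage genotype ratio was 0.896 (0.40 to 1.88).

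The highest Cx3cr1 level lay in a class too small to enter the comparisons: 11 nonclassical monocyte-like cells of the Lin+ iAdFASNKO library held 27 UMIs, or 509 CPM. Nonclassical monocytes, which patrol the vessel wall, are known for this receptor. Progenitor-like cells had 54, 41, 25 and 26 Cx3cr1 UMIs in Lin+ control, Lin+ iAdFASNKO, Lin- control and Lin- iAdFASNKO, in only 19, 16, 3 and 6 cells. Single cells held up to 9, 7, 12 and 15 of them. Among these cells 2 of 19, 3 of 16, 0 of 3 and 0 of 6 also had a UMI of Ptprc, the pan-leukocyte gene.

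Cxcr2, the receptor that draws neutrophils to Cxcl1 and Cxcl2, was concentrated in neutrophil-like cells. It stood at 702 CPM in Lin+ control and 696 in Lin+ iAdFASNKO, on 73 and 122 UMIs in 33 of 40 and 38 of 56 cells. The genotype ratio was 0.992 (0.736 to 1.34), so the libraries could not be told apart within counting error. At 1000 UMIs per cell 60.1% and 48.8% of the cells would have a UMI. Macrophage-like cells had 25.4 and 30.7 CPM, but in 5 and 1 cells. In Lin+ iAdFASNKO T cell-like cells 0 of 736 had a UMI, and 3 counts of that total would be a share of 0.408% of cells with a UMI; this does not limit the share that express the gene.

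Cxcr3, the receptor of activated type 1 lymphocytes for Cxcl9 and Cxcl10, was carried by NK cell-like and T cell-like cells. NK cell-like cells had 142, 71.6, 198 and 65.8 CPM in Lin+ control, Lin+ iAdFASNKO, Lin- control and Lin- iAdFASNKO. T cell-like cells had 54.5, 35.5, 78.0 and 22 CPM in the same order. Every iAdFASNKO value was below its control value, but these sums are small apart from Lin+ T cell-like cells, the 1 pair called lower: 32, 7, 25 and 3 UMIs in NK cell-like and 52, 125, 8 and 3 in T cell-like cells. Cxcr3 stood at no more than 0.470 CPM in progenitor-like cells.

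In Lin+ T cell-like cells the Cxcr3 ratio of 0.651 (0.468 to 0.918) was past the fold. It was 0.671 with the looser filter, 0.864 with the stricter filter and 0.675 without the cell with most UMIs in each library, and each of these ends the call. The share of cells with a UMI was 16.7% and 13.5%, or 5.86% and 3.42% at 1000 UMIs. The NK cell-like ratios of 0.505 (0.188 to 1.16) in Lin+ and 0.332 (0.0642 to 1.09) in Lin- both have intervals that hold 1.

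Cxcr4, the receptor for Cxcl12 that retains leukocytes in tissue and marrow, was found across myeloid and lymphoid classes. Neutrophil-like cells had 499.8 and 525 CPM in the Lin+ control and iAdFASNKO libraries, with a genotype ratio of 1.05 (0.739 to 1.51). B cell-like cells had 477 and 291 CPM in the same libraries, and classical monocyte-like cells 259 CPM. Macrophage-like cells had 147 and 104 CPM, and NK cell-like cells 119.7, 71.6, 127 and 219.5 CPM over the 4 libraries. T cell-like cells had 96.4, 67.9, 137 and 118 CPM. Macrophage-like, NK cell-like and T cell-like ranges overlap, while neutrophil-like cells were above each of them in both Lin+ libraries.

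Cxcr4 in B cell-like cells was the member with most UMIs behind a genotype difference in the Lin+ immune classes. There were 400 UMIs in 175 of 333 control cells and 1285 UMIs in 572 of 1332 iAdFASNKO cells. The ratio was 0.609 (0.544 to 0.683), and it ranged from 0.406 to 0.651 over all alternative settings. The share of cells with a UMI was 52.6% and 42.9%, or 32.8% and 22.7% at 1000 UMIs, at median depths of 2277 and 2456 UMIs. In progenitor-like cells of the same libraries it was 0.931% and 1.62%, or 0.166% and 0.333% at 1000 UMIs. Of the 3 members measured in B cell-like cells 1 was past the fold, beside 6.03% of all genes, and the members' median log2 ratio of -0.72 stood beside -0.03 over all genes.

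Within B cell-like cells, those picked by the naive lymphocyte list (Lef1, Tcf7 and others), genes best known from T cells, had a Cxcr4 level of 598 CPM in the control library against 317 in the iAdFASNKO library (ratio 0.530, interval 0.454 to 0.619). Cells left without a subset had 411 and 263 CPM, a ratio of 0.639. The Cxcr4 level was thus lower in iAdFASNKO in both. The stress list stood at 4415 and 3487 CPM and the progenitor list at 630.1 and 307 CPM in B cell-like cells, and their part was not tested.

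Cxcr4 was low in progenitor-like cells, at 1.34, 3.15, 0.262 and 0.980 CPM in Lin+ control, Lin+ iAdFASNKO, Lin- control and Lin- iAdFASNKO. The Lin+ ratio was 2.35 (1.32 to 4.29), on 20 and 35 UMIs in 16 and 27 cells, and the stricter filter gave 1.71, which ends the call. The B cell and T cell marker lists moved the same way in Lin+ progenitor-like cells, from 8.52 to 48.6 CPM and from 7.65 to 21.8 CPM, and their part in the Cxcr4 ratio was not tested. This was 1 of 6 measured members past the fold, beside 14.1% of all genes. The members' median log2 ratio was -0.01 and that of all genes 0.12.

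Cxcr6, the receptor for Cxcl16 that marks tissue-resident lymphocytes, was highest in T cell-like and ILC2-like cells. T cell-like cells had 118 CPM in Lin+ control, 80.6 in Lin+ iAdFASNKO, 478 in Lin- control and 220.2 in Lin- iAdFASNKO. ILC2-like cells had 245 CPM in Lin- control and 182 in Lin- iAdFASNKO, a ratio of 0.743 (0.367 to 1.43). NK cell-like cells averaged 21.2 CPM, and progenitor-like cells had no more than 0.377 CPM. The T cell-like level was higher in each Lin- library than in the Lin+ library of the same genotype.

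Genotype ratios of Cxcr6 in T cell-like cells were below 1 in both fractions. The Lin+ ratio of 0.681 (0.546 to 0.854) stayed under the fold. The Lin- ratio was 0.461 (0.283 to 0.741), on 49 UMIs in 15 of 26 cells and 30 UMIs in 23 of 62 cells. It was 1 of 3 measured members past the fold in Lin- T cell-like cells, beside 14.9% of all genes. The share of T cell-like cells with a Cxcr6 UMI was 22.5% and 22.7% in Lin+ and 57.7% and 37.1% in Lin-. At 1000 UMIs it would be 9.89%, 7.25%, 34.1% and 21.5%. The stress list stood at 4678, 2850, 6755 and 3010 CPM, higher in control in both fractions, and its part was not tested.

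The T cell-like cells of the Lin+ libraries differed in their make-up. Cells with naive markers were 106 of 222 (47.8%) in control and 495 of 736 (67.3%) in iAdFASNKO, and cells with effector markers (Cd44, Nkg7 and others) were 44.1% and 26.5%. Ccr2, Cxcr3, Cxcr4 and Cxcr6 each stood higher in effector than in naive cells of the same library. Naive cells had 34.9 and 29.9 CPM of Ccr2, with a genotype ratio of 0.857 (0.488 to 1.61). Within effector cells Ccr2 was 335 and 225 CPM, a ratio of 0.671 (0.542 to 0.833), just under the fold. The whole-class Ccr2 ratio of 0.404 lay below both.

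The other receptors followed the same split. Cxcr3 had 25.6 and 23.0 CPM in naive cells (ratio 0.90) and 78.5 and 68.2 in effector cells (0.869). Cxcr4 had 60.4 and 59.7 CPM in naive cells (0.989) and 125 and 84.1 in effector cells (0.672). Cxcr6 in naive cells was the exception, with 27.9 CPM in the control and 57.3 in the iAdFASNKO library (ratio 2.06, interval 1.14 to 4.07). With the mean over cells scaled to equal depth that ratio was 1.42, which ends the call. In effector cells Cxcr6 had 206 and 151 CPM, a ratio of 0.735.

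**Figure D3:**
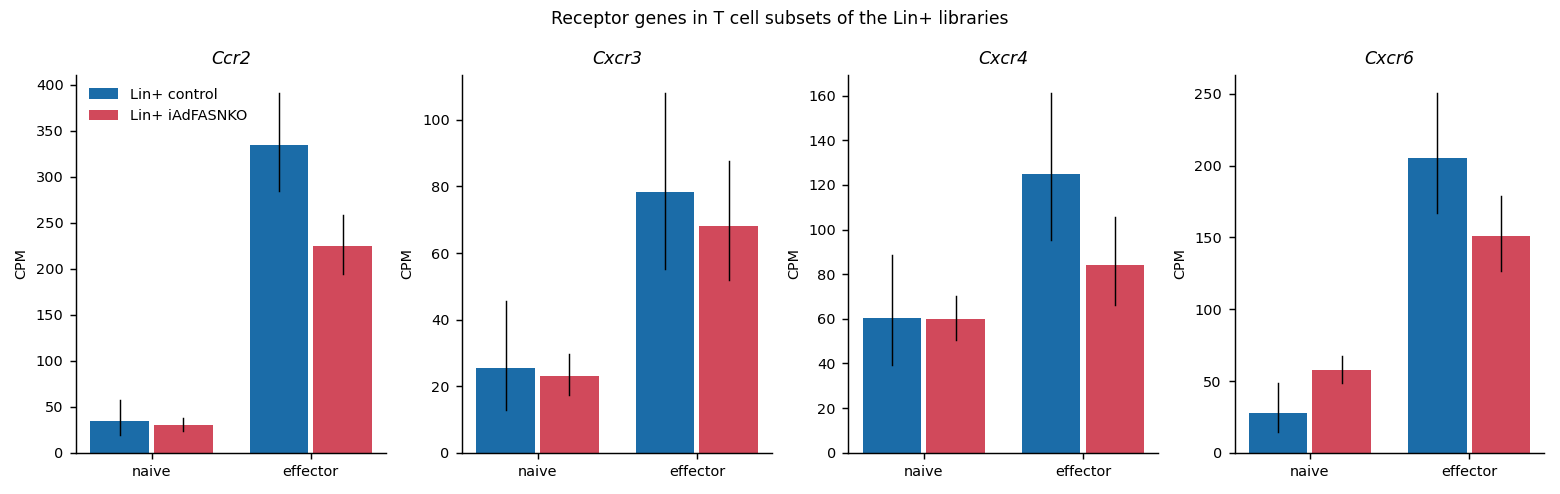
Level (CPM) of Ccr2, Cxcr3, Cxcr4 and Cxcr6 in naive-marker and effector-marker T cell-like cells of the Lin+ control and Lin+ iAdFASNKO libraries, with 95% Poisson intervals. Effector cells had 335 and 225 CPM of Ccr2 against 34.9 and 29.9 in naive cells.

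By T cell kind, Ccr2 was lower in iAdFASNKO CD4 cells (197 and 44.5 CPM, ratio 0.226) and CD8 cells (107 and 38.4 CPM, ratio 0.361). Cells with a UMI of Foxp3, the regulatory T cell gene, and none of Cd8a or Cd8b1 had 612 CPM in 9 control cells and 224 in 43 iAdFASNKO cells. Cells with gamma-delta T cell receptor genes carried both Ccr2 and Cxcr6 at high levels in all 4 libraries, though each held only 12 to 15 of them. Their Ccr2 stood at 351, 533, 668 and 425 CPM and their Cxcr6 at 280.4, 363, 811 and 350 CPM in Lin+ control, Lin+ iAdFASNKO, Lin- control and Lin- iAdFASNKO. They made up 5.86% and 1.77% of Lin+ and 46.2% and 24.2% of Lin- T cell-like cells. In Lin+ control 57 T cell-like cells had a Ccr2 UMI, 50 had a Cxcr6 UMI and 22 had both.

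The sort also divided these receptors. Over the control libraries, Lin+ over Lin- T cell-like ratios were 0.543 for Ccr2 and 0.248 (0.176 to 0.354) for Cxcr6, 2 of 4 measured members past the fold beside 9.43% of all genes. Over the iAdFASNKO libraries they were 0.327 and 0.366, 2 of 5 beside 11.7%. Within effector cells the Ccr2 ratios were 0.695 and 0.803, with intervals that hold 1, and the Cxcr6 ratios 0.322 and 0.559. With classes from clusters the iAdFASNKO Ccr2 ratio turned to 1.62 (0.442 to 13.5). In NK cell-like cells 0 of 3 members were past the fold in control, beside 11.4%, and 0 of 1 in iAdFASNKO, beside 12.2%. In iAdFASNKO B cell-like cells it was 1 of 3, Cxcr4 at 3.57, beside 6.82%. Nothing is read from that count, because the 3 members reached the minimum of 20 UMIs only with their Lin+ sums. Ccr2 had 0 Lin- and 33 Lin+ UMIs, Ackr3 0 and 21, and Cxcr4 4 and 1285. The 20 Lin- cells had summed blood endothelial markers at 2221 CPM, against 311 in Lin+.

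Ackr1, the decoy receptor of venular endothelium, had its highest mean in blood endothelial-like cells. They had 81.5 CPM in Lin+ iAdFASNKO, 53.6 in Lin- control and 152 in Lin- iAdFASNKO, on 23, 50 and 136 UMIs in 4 of 46, 11 of 80 and 32 of 148 cells. Single cells held up to 17, 17 and 14 of these UMIs. Schwann-like cells had 24.8, 53.6, 27.3 and 11.3 CPM over the 4 libraries, on 2 to 6 UMIs each. Progenitor-like cells had 53.1 and 39.8 CPM in the Lin+ control and iAdFASNKO libraries and 5.41 and 5.81 in the Lin- libraries. They lay below blood endothelial-like cells of the same library wherever both classes had a value. Across fractions, 53.1 CPM in Lin+ control progenitor-like and 53.6 CPM in Lin- control blood endothelial-like cells cannot be ordered.

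In Lin- blood endothelial-like cells Ackr1 was higher in iAdFASNKO, with a ratio of 2.83 (2.03 to 4.0), and Ackr3 was lower, with a ratio of 0.664 (0.530 to 0.830). These were 2 of 2 measured members past the fold, beside 13.5% of all genes. The share of cells with an Ackr1 UMI was 13.8% in control and 21.6% in iAdFASNKO, or 3.44% and 10.0% at 1000 UMIs. Median depth was 8110 and 4054 UMIs, the stress list stood at 3815 and 6106 CPM and the pericyte list at 110.4 and 217.7 CPM; their part was not tested. The Ackr1 ratio was 1.52 with the stricter filter and 3.85 without the cell with most UMIs. The Ackr3 ratio lost its call in 6 settings, where it lay between 0.667 and 0.724. Ackr3 itself was 222 CPM in Lin- control and 147 in Lin- iAdFASNKO.

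Venous-marker cells (Selp, Vwf and others) held most of the Lin- Ackr1 UMIs, 48 of 50 in control and 129 of 136 in iAdFASNKO. They had 68.6 CPM in the control and 166 in the iAdFASNKO library (ratio 2.42, interval 1.73 to 3.45), with UMIs in 9 of 53 and 29 of 114 cells. They were 66.3% and 77.0% of the class. In Lin+ iAdFASNKO the class was 54.4% arterial-marker cells, which had 0 Ackr1 UMIs in 25 cells, and 23.9% venous-marker cells, which had 269 CPM in 11 cells. Lin+ over Lin- in iAdFASNKO, Ackr1 was 0.537 (0.329 to 0.839) and Ackr3 0.577 (0.357 to 0.896), 2 of 2 past the fold beside 22.4% of all genes. Without any shared barcode the Ackr1 ratio was 0.659, which ends the call.

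Ackr3, the Cxcl12 scavenger also known as CXCR7, had its highest mean over libraries, 296 CPM, in progenitor-like cells. They had 422 CPM in Lin+ control, 463 in Lin+ iAdFASNKO, 161 in Lin- control and 138 in Lin- iAdFASNKO, on 6291, 5147, 3688 and 1825 UMIs. The 2 Lin+ libraries stand above the 2 Lin- libraries. Lymphatic endothelial-like cells, with 242 and 298 CPM, lay above progenitor-like cells within the Lin- libraries and had a genotype ratio of 1.23 (0.832 to 1.82), with 0 of 1 member past the fold beside 10.4% of all genes. Perineurial-like cells had 152 CPM in Lin- iAdFASNKO, the 1 library with at least 20 of them, on 18 UMIs over 29 cells. Of all perineurial-like cells 38.3% were close to the class threshold. The progenitor list stood at 9548 CPM in the Lin- iAdFASNKO ones, and its part was not tested. Pericyte or smooth muscle-like cells had 91.2 and 80.8 CPM in the Lin- libraries, a ratio of 0.887 (0.744 to 1.06), with 0 of 1 member past the fold beside 9.09% of all genes.

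The share of progenitor-like cells with an Ackr3 UMI was 72.3%, 64.9%, 55.6% and 36.6% over the 4 libraries. At 1000 UMIs it would be 30.2%, 32.2%, 13.4% and 10.9%, so the gap between fractions remains at equal depth. In B cell-like cells of the Lin+ libraries it was 1.2% and 1.5%, or 0.402% and 0.492%. For Ackr1 the progenitor-like share was 28.3%, 20.2%, 4.43% and 2.99%, or 5.06%, 3.94%, 0.564% and 0.583% at 1000 UMIs, against 0.30% and 0.15% of B cell-like cells unthinned. Most Lin+ progenitor-like cells with an Ackr1 UMI also had Ackr3: 416 of 487 in control and 276 of 337 in iAdFASNKO. Among all Lin+ progenitor-like cells the Ackr3 share was 72.3% and 64.9%. Cells with an Ackr1 UMI were deeper than those without, at medians of 10120 against 7563 UMIs in control and 8600 against 5191 in iAdFASNKO. The part of depth in this overlap was not tested.

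Between genotypes, the decoy receptors differed little over all progenitor-like cells. The Ackr3 ratio was 1.10 (1.06 to 1.14) in Lin+ and 0.855 (0.808 to 0.905) in Lin-, and the Ackr1 ratio 0.750 (0.666 to 0.843) in Lin+ and 1.07 (0.797 to 1.44) in Lin-. Of the 3 members measured in Lin- progenitor-like cells 0 were past the fold, beside 15.5% of all genes.

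Between fractions the difference was larger. The Lin+ over Lin- ratio of Ackr1 was 9.81 (8.11 to 12) for the control and 6.85 (5.37 to 8.85) for the iAdFASNKO libraries, and that of Ackr3 2.62 (2.52 to 2.73) and 3.37 (3.19 to 3.55). The summed stress list stood at 8407 (Lin+) and 16920 (Lin-) CPM in control and at 5257 and 11790 in iAdFASNKO, and the pericyte list at 32.4 and 180.6 and at 15.8 and 249.8; their part in these ratios was not tested. Of the 5 members measured, 5 were called higher in Lin+ in both genotypes, beside 21.8% of all genes called in control and 28.3% in iAdFASNKO. Nothing is read from that count, because Ccr2 (3 Lin- and 46 Lin+ UMIs in control) and Cxcr4 (6 and 20) reached the minimum of 20 UMIs only with their Lin+ sums.

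The other 3 genes measured in progenitor-like cells were the leukocyte receptors Ccr2, Cxcr4 and Cx3cr1. Their Lin+ over Lin- ratios in control were 23.6 (7.58 to 119), 5.12 (1.99 to 15.6) and 3.32 (2.03 to 5.57). No direction is read for Ccr2 and Cxcr4, which reached the minimum for a measured gene only with their Lin+ sums. Within interstitial-marker cells, described next, the control Cx3cr1 ratio turned to 0.260 (0.130 to 0.554), on 12 Lin- UMIs that all came from 1 cell and 32 Lin+ UMIs. Over all progenitor-like cells the levels of these 3 genes were at most 3.69 CPM. In interstitial-marker cells of the control libraries Cx3cr1 stood at 16.5 CPM in Lin- and 4.30 in Lin+. Of the Lin+ control progenitor-like cells with a Ccr2 UMI, 12 of 28 had a Ptprc UMI, against 3.02% of those without; in Lin+ iAdFASNKO it was 7 of 17 against 7.20%. Leukocyte transcripts thus accompanied Ccr2 in these cells, and their part in the ratio was not tested.

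Progenitor-like subsets differed in both decoy receptors and in their share of each library. Cells with interstitial markers (Dpp4, Pi16 and others) were 49.2% and 68.0% of Lin+ and 2.98% and 6.64% of Lin- progenitor-like cells in control and iAdFASNKO. Cells with committed preadipocyte markers (Icam1, Col15a1 and others) were 28.6% and 12.2% of Lin+ and 78.5% and 74.3% of Lin-. Cells with the regulatory stromal markers (F3, Clec11a and others) were between 11.3% and 15.3% of each library.

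Ackr3 was highest in interstitial cells of every library, at 656, 605, 433 and 287 CPM in Lin+ control, Lin+ iAdFASNKO, Lin- control and Lin- iAdFASNKO. Committed cells had 196, 217, 162 and 137 CPM and regulatory stromal cells 119, 65.0, 73.5 and 23.0 CPM. The order interstitial, committed, regulatory stromal held in all 4 libraries. Ackr1 had another order, with 76.6, 47.3, 49.6 and 14.6 CPM in interstitial, 59.5, 46.0, 7.35 and 14.1 in regulatory stromal and 15.3, 13.7, 3.27 and 3.37 in committed cells. Committed cells were the lowest for Ackr1 in each library.

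**Figure D4:**
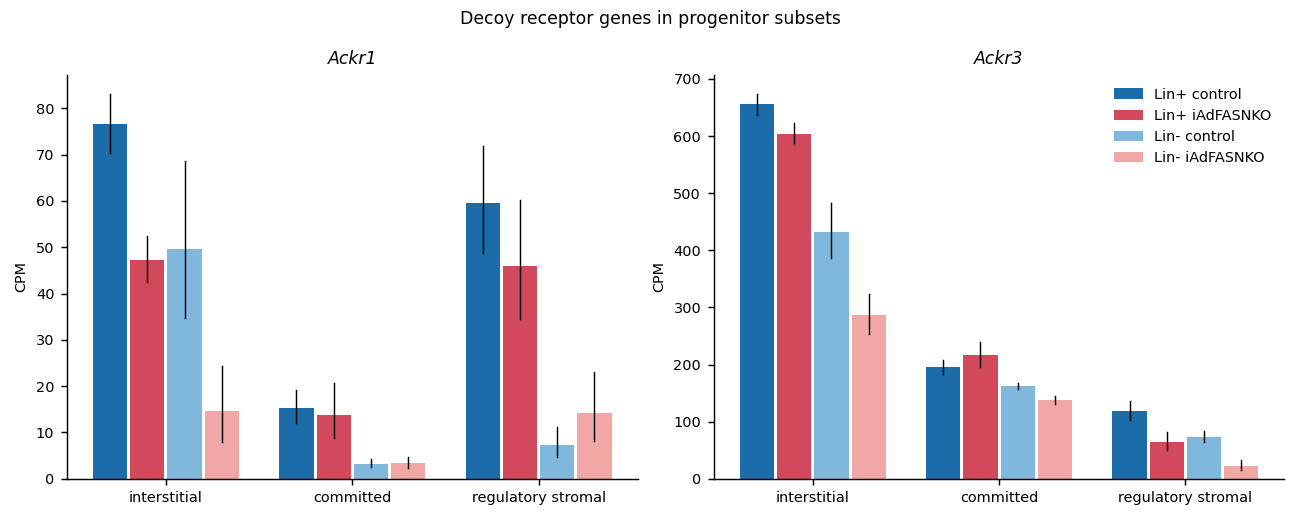
Level (CPM, bars from 0) of Ackr1 and Ackr3 with 95% Poisson intervals in interstitial, committed and regulatory stromal progenitor-like cells of the 4 libraries. Interstitial cells had the highest Ackr3 level in every library, from 287 to 656 CPM.

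Within subsets the gap between fractions was smaller than over the class in each of the ratios that follow. In interstitial cells Lin+ over Lin- was 1.54 in control and 3.25 in iAdFASNKO for Ackr1, and 1.51 and 2.11 for Ackr3. Both control ratios were 1.37 or lower with classes from clusters and without any shared barcode. In committed cells Ackr1 was 4.68 and 4.07 and Ackr3 1.21 and 1.58. In regulatory stromal cells Ackr1 was 8.10 and 3.25 and Ackr3 1.62 and 2.83.

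Genotype ratios differed between subsets. In interstitial cells Ackr1 was lower in iAdFASNKO, at 0.618 (0.540 to 0.707) in Lin+ and 0.293 (0.146 to 0.557) in Lin-, the latter on 66 and 153 cells. The mean over cells scaled to equal depth gave 0.671 in Lin+, which ends that call. Ackr3 in regulatory stromal cells was also lower, at 0.547 in Lin+ and 0.313 in Lin-. In interstitial cells Ackr3 was lower in Lin-, at 0.663 (0.562 to 0.782), while the Lin+ ratio was 0.922. Cells left without a subset had Ackr3 ratios of 0.726 in Lin+, under the fold, and 0.547 in Lin-. Their Lin+ Ackr1 ratio was 0.294 (0.136 to 0.585). The Lin+ Ackr3 ratio of committed cells was 1.11 (0.977 to 1.25). In committed cells, the largest Lin- subset, the Lin- ratios were 1.03 for Ackr1 and 0.845 for Ackr3. Ackr1 in Lin- regulatory stromal cells went the other way, at 1.93 (0.945 to 3.84), an interval that holds 1. The subset directions were not tested against one another.

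The ligands of the members gave the other side of these axes; 15 of 16 listed genes were in the features, and Cxcl11 was not analysed here. Ccl8, listed here for Ccr2, averaged 4466 CPM in macrophage-like cells, where Ccl7 had 314 and Ccl12 109.6. Whether mouse Ccl8 acts through Ccr2 is not shown by these data. Cxcl12, the shared ligand of Cxcr4 and Ackr3, averaged 451 CPM in blood endothelial-like and 349 in progenitor-like cells. Cx3cl1 was highest in blood endothelial-like cells at 87.5 CPM, Cxcl2 in neutrophil-like cells at 6884 CPM and Cxcl16 in migratory dendritic-like cells at 412 CPM.

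Among 11 ligands measured in Lin+ macrophage-like cells, 1 was higher in iAdFASNKO and 3 were lower, beside 11.5% of all genes past the fold in either direction. Cxcl10 was 152 and 249 CPM (1.64), while Ccl2 was 331 and 207 (0.625) and Ccl7 was 413 and 215 (0.520). Cxcl9 had 30 UMIs in control and 0 in iAdFASNKO. Cxcl9 thus reached the minimum for a measured gene only with its control sum. Nothing is read from its place in the count of lower ligands. In Lin- progenitor-like cells 4 of 12 were higher and 3 lower, beside 15.5% of all genes, with Cxcl12 at 284 and 438 CPM (1.54). The higher genes there include Cxcl5, from which nothing is read. With 3 control and 18 iAdFASNKO UMIs, Cxcl5 reached the minimum only with its iAdFASNKO sum. In Lin+ progenitor-like cells 1 of 11 was higher and 5 were lower, beside 14.1% of all genes, with Cxcl1 at a ratio of 0.586 and Cxcl10 at 2.72. Cxcl10 was thus higher and Ccl7 lower in iAdFASNKO in all 3 of these sums.

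The 18 other chemokine receptor genes on the list divided between cell types in their own ways. Ccr1 averaged 818 CPM in neutrophil-like cells (1077 in control and 559 in iAdFASNKO, 0.519) and the decoy-like Ccrl2 607 CPM (769 and 445, 0.579), 2 lower of 2 measured there beside 16.8% of all genes past the fold. Ccr7, which directs cells to lymph nodes, averaged 744 CPM in migratory dendritic-like and 232 CPM in B cell-like cells; in Lin+ B cell-like cells it was 381 and 212 CPM (0.558). Ackr2 and Gpr182 averaged 141 and 131 CPM in lymphatic endothelial-like cells. Ackr4 averaged 247 CPM in blood endothelial-like cells and was 419 and 262 CPM in Lin- (0.626).

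Of the 6 other receptors measured in Lin+ progenitor-like cells, 2 were higher in iAdFASNKO, Ccr7 and Ackr4, beside 14.1% of all genes past the fold. Nothing is read from that count. Ccr7 (10 control and 40 iAdFASNKO UMIs) and Ackr4 (6 and 45) reached the minimum for a measured gene only with their iAdFASNKO sums. Ccr7 is also high in B cell-like cells, and the B cell list went from 8.52 to 48.6 CPM in these progenitor-like cells; its part was not tested.

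Genes with the most similar pattern over 38 class and library sums were found for each member by Pearson's r of log2(CPM + 1). The points share libraries and depth, so r is a description. Ccr2 was closest to Dok2 (0.968), Gna15 (0.938) and Pstpip1 (0.930), and Cxcr2 to Il1f9 (0.977), Retnlg (0.973) and Trem1 (0.973), the last pair being markers used for the neutrophil class. Cxcr3 was closest to Sh2d1a (0.948), Cxcr4 to Cytip (0.934) and Cxcr6 to Cd3g (0.931), a T cell class marker. Ackr3 was closest to Spats2l (0.898), Ntn1 (0.895) and Prelp (0.882). The closest genes to Cx3cr1 and Ackr1 were less alike, Cass4 at 0.798 and Myrip at 0.793.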

How the data were processed

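The authors deposited 1 matrix of raw UMI counts per genotype, with the fraction as a barcode tag; the submitters' processing notes name Cell Ranger 3.1.0, Seurat 3.0 and mm10, and the file headers name software version 3.0.2. The annotation release is not given in the sources used here. Cells needed 300 genes, 500 UMIs and at most 10% mitochondrial UMIs. Scrublet (expected rate 0.06, scanpy 1.11.5, Python 3.11.15) marked 1.01% to 2.20% of cells, which were removed, as were shallow copies of shared barcodes. A cell joined the class with at least 3 detected markers and a lead of 10 percentage points in the share detected. Subsets needed 2 markers, except that CD4, CD8 and regulatory T cell kinds were set by UMIs of Cd4, of Cd8a or Cd8b1, and of Foxp3. Members and lists were chosen with earlier results of these data known; gate thresholds, the subset rule and the copy rule were set after the files were seen. Named were the 8 members, 2 lists by counts and highest class, and the 3 most similar genes. UMIs were summed by class and library. Intervals (scipy 1.17.1) cover counting error; ratios were tested on simulated data. Thinned shares are expected values, with no random draw. Some results on listed genes are not reported here.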

Additional observations from a re-analysis of the deposited data

How the results depend on the processing

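No paired analysis was possible because each group is 1 library and its replicate number only names it. For class and subset ratios together, 832 values under alternative settings kept their direction and side of the threshold, 32 lost the call, 26 gained one and 1 reversed; the cause was not tested. The reversed value is Ccr2 in T cell-like cells, Lin+ over Lin- in iAdFASNKO, at log2 0.69 with classes from Leiden clusters. Member pairs called higher and lower were 1 and 4 of 27 between genotypes in Lin+, and 1 and 3 of 15 in Lin-. By class, 6.03% to 16.8% of all genes were past the fold in Lin+ and 9.09% to 19.2% in Lin-. Between fractions the pairs were 5 and 2 of 12 in control and 6 and 4 of 16 in iAdFASNKO, beside 9.43% to 21.8% and 6.82% to 28.3%. Nothing is read from the fraction counts, which hold pairs that reached the minimum only with their Lin+ sums. The counts under other settings have no share of all genes beside them. With the looser cell filter 2 were lower in Lin+. With the stricter filter 0 were higher in Lin+, and 2 higher and 0 lower in Lin-. Clusters gave 2 higher in Lin+, 1 lower in Lin-, 0 lower between fractions in control and 2 lower in iAdFASNKO; macrophage-like and other rare myeloid classes have no cluster value. In Lin-, 3 were higher with a gate of 2 markers, 2 with doublets kept, and 2 higher and 1 lower with the mean of scaled cells. Without haemoglobin, mitochondrial and immunoglobulin genes in the total 2 were higher in Lin+. Chosen after seeing the data were keeping shallow copies and leaving out every shared barcode (each 2 higher in Lin-), and the subset ratios under all settings. Depth limits shares of cells and every pair under 20 UMIs.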
